A study of Saccharomyces cerevisiae with 12 samples.

Results

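OLE1 (YGL055W) codes for the only fatty acid desaturase of the budding yeast Saccharomyces cerevisiae. It is described here with the activators of its gene, MGA2 (YIR033W) and SPT23 (YKL020C), and with the genes that make and lengthen fatty acids. The latter are ACC1 (YNR016C), FAS1 (YKL182W), FAS2 (YPL231W), ELO1 (YJL196C), ELO2 (YCR034W) and ELO3 (YLR372W). The genes were chosen by name and function, as a list of 10 systematic names drawn up with earlier results of these data known. Of these, 9 were among the 5974 probes of the values table. The row of FAA1 (YOR317W), an acyl-CoA synthetase, was not analysed here.

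The pathway begins with acetyl-CoA carboxylase, the product of ACC1, which makes malonyl-CoA. The fatty acid synthase complex, with its beta subunit from FAS1 and its alpha subunit from FAS2, joins malonyl units into saturated chains. Ole1, a protein of the endoplasmic reticulum, places a double bond into these chains and uses molecular oxygen to do so, so yeast needs an outside source of unsaturated fatty acids when oxygen is absent. Mga2 and Spt23 are related membrane-bound precursors that are cut by a ubiquitin-dependent step, and the released parts activate OLE1. Mga2 is the one known for the induction of OLE1 at low oxygen, and supplied unsaturated fatty acids are known to lower the OLE1 transcript.

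Messenger RNA was measured on 12 arrays, 2 for each of 6 groups, in strain BY4741 of the EUROSCARF collection, called wild type, and in the strain labelled ixr1 null in the same background. IXR1 codes for a protein of the high mobility group family that binds DNA. Synthetic complete medium with 2% glucose was used throughout, at 30 C. The first condition was growth in air. The second, called overnight hypoxia, was growth in anaerobic jars with oxygen below 1%, and only its medium is described as given lipids, namely ergosterol at 20 mg/l and, at 0.5%, Tween 80, a detergent that carries oleate. The third, called the shift, began in air up to an OD600 of 0.8 and continued with 3 hours of nitrogen. Each group has an array A and an array B, and the labels do not say whether these are separate cultures. The spread behind each adjusted p is that between A and B, pooled over the 6 groups, and it may be technical. In the permutation tests over both genotypes the spread also holds the difference between genotypes. In overnight hypoxia the oxygen level, the jars, the length of growth and the 2 lipid supplements cannot be told apart. The measure is the share of each transcript in the labelled cDNA, which was copied from RNA with an oligo-dT primer. A smaller amount per cell and fewer cells holding the transcript therefore cannot be told apart either.

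Intensities are given after quantile normalization, in units in which each array averages near 1, and they compare 1 gene between arrays, never 2 genes. Exact zeros made up 11.8% of all values and numbered 69 to 3489 per array, with the most on ixr1 null shift array A. Arrays A and B of a group ranked probes alike, with rank correlations of 0.83 to 0.917 in air and overnight hypoxia, but of 0.692 in the wild type shift and 0.59 in the ixr1 null shift. The shift arrays also differed in DAN1, a cell wall gene of anaerobic cells, which both shift A arrays list at 0 while the shift B arrays gave 2.48 (wild type) and 6.26 (ixr1 null). In overnight hypoxia DAN1 was 28.7-fold (wild type) and 49.2-fold (ixr1 null) higher than in air. IXR1 itself was no lower in the arrays labelled ixr1 null. In air it read 9.69 and 7.29 on the wild type arrays against 9.69 and 8.80 on the others, so genotype is given throughout as labelled. In the deposited values, the brightest of the fatty acid genes reached at most 20.6% of the brightest probe on any array.

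**Figure D1:**
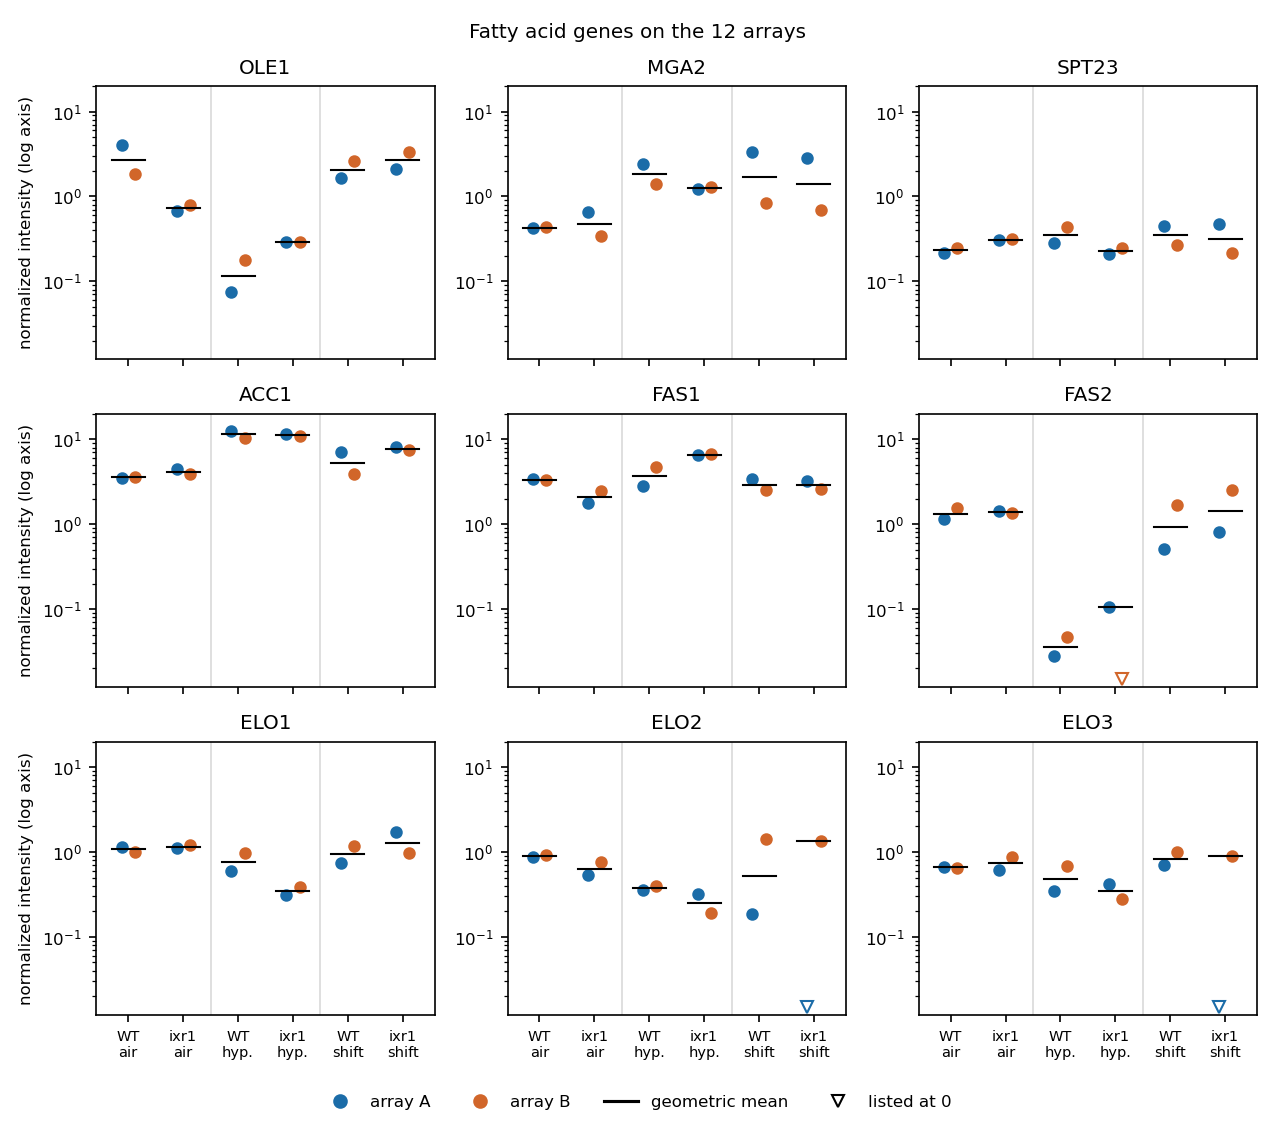
Normalized intensity (log axis) of the 9 fatty acid genes on the 12 arrays, by group, where WT is wild type, ixr1 is the ixr1 null, and hyp. is overnight hypoxia. Circles are arrays A and B, bars are geometric means of the positive values and open triangles are probes listed at 0. OLE1 lies between 0.0754 and 0.290 on the 4 hypoxia arrays and between 0.671 and 3.99 on all others.

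OLE1 was lowest in overnight hypoxia and was near its wild type air level after the nitrogen shift. In wild type cells it read 3.99 and 1.82 in air, 0.0754 and 0.180 in overnight hypoxia, and 1.64 and 2.59 after the shift. The ixr1 null arrays gave 0.671 and 0.784 in air, 0.290 on both hypoxia arrays, and 2.11 and 3.37 after the shift. The 4 hypoxia arrays lay below all 8 others. Ordered by geometric mean, the groups ran from wild type air at 2.69 through ixr1 null shift at 2.67, wild type shift at 2.06, ixr1 null air at 0.725 and ixr1 null hypoxia at 0.290 to wild type hypoxia at 0.116. The arrays of the first 3 groups overlapped, and those of each later neighbouring pair did not.

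In the wild type, OLE1 was 23.1-fold lower in overnight hypoxia than in air, a log2 difference of -4.53 ± 0.59 (SE, 2 arrays a group), with an adjusted p of 0.000639 from limma's moderated test. The size of this difference was at least that of 96.2% of the 4969 probes tested. In the ixr1 null the same comparison gave a log2 difference of -1.32 ± 0.60, a 2.50-fold lower level, with an adjusted p of 0.219, so that difference did not pass the test. The 95% interval for the ixr1 null ran from -2.66 to 0.02 on the log2 scale, and that for the wild type from -5.85 to -3.22. The test of the difference between the 2 genotypes gave an interaction of 3.21 ± 0.83 on the log2 scale with an adjusted p of 0.130. The lower starting level of the ixr1 null in air and its higher level in hypoxia both enter that value. Each of these parts is given further on.

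After the shift, the difference of OLE1 from air did not pass the test in either genotype. The wild type difference was -0.39 ± 0.59 on the log2 scale, with a 95% interval from -1.70 to 0.93 and an adjusted p of 0.779. The ixr1 null difference was 1.88 ± 0.56 with an adjusted p of 0.141, and both of its shift arrays lay above both of its air arrays. Its 95% interval, which is not adjusted for the number of probes, ran from 0.64 to 3.12. The 2 low-oxygen treatments differed from each other. OLE1 was 17.7-fold higher after the shift than in overnight hypoxia in wild type cells (4.15 ± 0.59 on the log2 scale, adjusted p = 0.00188). It was 9.20-fold higher in the ixr1 null (3.20 ± 0.56, adjusted p = 0.00276), where the call was lost when arrays were centred on medians (2.39, adjusted p = 0.0715) and with quantile normalization over positive values (2.19, adjusted p = 0.0600). Both shift B arrays read higher for OLE1 than their A arrays, by 0.66 for the wild type pair and 0.68 for the ixr1 null pair (log2), and both comparisons share their hypoxia arrays with those against air.

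Among the probes with a value on all 12 arrays, the 5 whose pattern was nearest to that of OLE1 were LEU4, ARB1, HXT3, ARO4 and TRR2. Likeness was the root mean square difference of log2 intensities after each probe was centred on its own mean, and it ran from 0.608 for LEU4 to 0.676 for TRR2, against a median of 1.82 over 2154 probes. LEU4 codes for an alpha-isopropylmalate synthase of leucine synthesis, ARO4 for an enzyme of aromatic amino acid synthesis and HXT3 for a hexose transporter. ARB1 codes for an ATPase of ribosome assembly and TRR2 for the mitochondrial thioredoxin reductase. The group means of LEU4 were 3.52 in wild type air, 0.140 in wild type hypoxia and 3.15 after the wild type shift, and in the ixr1 null they were 1.73, 0.242 and 3.42. LEU4 was picked for its likeness to OLE1 on these same arrays, so a shared order of group means follows from that choice. It is not separate support for a link between the genes.

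**Figure D2:**
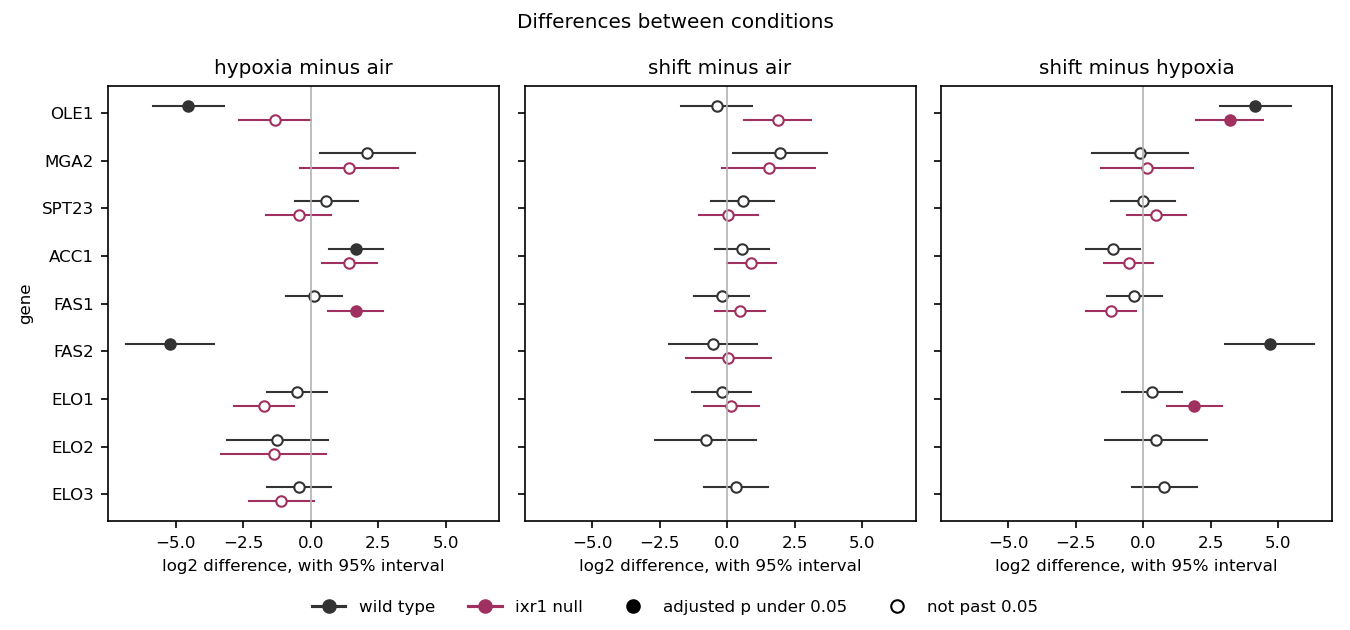
Log2 differences of normalized intensity for the 9 genes between conditions, in the wild type and the ixr1 null, with 95% intervals of limma's fit. Filled circles have an adjusted p under 0.05, and genes with a zero in a group of the comparison are not drawn. OLE1 and FAS2 stand at -4.53 and -5.21 for wild type hypoxia against air and at 4.15 and 4.68 for wild type shift against hypoxia.

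The activator genes had other patterns than OLE1. MGA2, whose product is the main activator at low oxygen, read 0.427 and 0.431 on the wild type air arrays and 0.661 and 0.346 on those of the ixr1 null. It read 2.39 and 1.41 in wild type hypoxia and 1.24 and 1.29 in ixr1 null hypoxia. After the shift it read 3.31 and 0.848 (wild type) and 2.81 and 0.688 (ixr1 null). Every low-oxygen array of either genotype therefore lay above every air array after normalization. With the deposited values ixr1 null shift array B read 0.571, below ixr1 null air array A at 0.724. Set against air, MGA2 differed by 2.10 ± 0.79 (log2, adjusted p = 0.134) in wild type hypoxia, 1.40 ± 0.81 (adjusted p = 0.346) in ixr1 null hypoxia, 1.97 ± 0.79 (adjusted p = 0.272) after the wild type shift and 1.54 ± 0.77 (adjusted p = 0.389) after the ixr1 null shift. None passed the test within 1 genotype, although wild type hypoxia did when only the arrays compared were fitted (adjusted p = 0.0259).

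With both genotypes put together, 4 arrays against 4, the exact two-sided permutation test of mean log2 intensity gave MGA2 a difference of 1.75 and p = 0.0286 for hypoxia against air, and 1.75 with p = 0.0286 for the shift against air. That p is the smallest that 4 against 4 arrays can give, and the arrays of each genotype and letter are treated in it as exchangeable. The exact p-values here and below are not adjusted for the number of genes tested. The shift result did not hold on other scales: with the deposited values the difference was 1.48 with an exact p of 0.0571. The high shift values were those of the A arrays, and MGA2 was 1.96 lower on shift B than on shift A in the wild type and 2.03 lower in the ixr1 null (log2). With both shift B arrays left out, MGA2 exceeded air by 2.95 in the wild type and by 2.56 in the ixr1 null (log2). With both shift A arrays left out instead, it exceeded air by 0.98 in the wild type and by 0.52 in the ixr1 null. Each of these values rests on 1 shift array a genotype. DAN1, listed at 0 on those A arrays, ran the other way, and the part of the array letter in the MGA2 result was not tested.

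SPT23 stayed in a narrow range. It read 0.218 and 0.249 in wild type air, 0.283 and 0.431 in wild type hypoxia and 0.453 and 0.266 after the wild type shift. In the ixr1 null it read 0.306 and 0.313 in air, 0.209 and 0.248 in hypoxia and 0.474 and 0.213 after the shift. No comparison of SPT23 passed the test as fitted, and the exact permutation test over both genotypes gave p = 0.857 for hypoxia and p = 0.343 for the shift. The ixr1 null shift values of SPT23 depend on the normalization, because the deposited readings there were 0.139 and 0.0891 and the many zeros of those arrays raise dim probes when zeros are ranked. With arrays centred on medians SPT23 was lower after the ixr1 null shift than in air (-2.30, adjusted p = 0.0436) and than in hypoxia (-1.96, adjusted p = 0.0194), and with quantile normalization over positive values it was lower than in hypoxia (-1.57, adjusted p = 0.0309).

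The 2 subunit genes of fatty acid synthase gave different patterns. FAS2 read 1.15 and 1.55 in wild type air, 0.0277 and 0.0471 in wild type hypoxia and 0.507 and 1.69 after the wild type shift. In the ixr1 null it read 1.43 and 1.34 in air, 0.106 on hypoxia array A and 0 on hypoxia array B, and 0.817 and 2.50 after the shift. The hypoxia arrays lay below all others, and the 2 wild type ones were within the dimmest 10% of positive values. FAS2 fell in wild type hypoxia by 5.21 ± 0.73 on the log2 scale, which is 36.9-fold (adjusted p = 0.00134). With dim values set to the 10th percentile the difference was -4.50 (adjusted p = 0.00484). The zero kept the ixr1 null hypoxia comparison of FAS2 out of the test. FAS2 was 25.6-fold higher after the wild type shift than in wild type hypoxia (4.68 ± 0.73, adjusted p = 0.00432), although with dim values set to the 10th percentile it was 3.97 (adjusted p = 0.0111) and without wild type hypoxia array A the adjusted p was 0.0531. On both shift A arrays FAS2 was below its B partner, by 1.73 in the wild type and 1.61 in the ixr1 null (log2).

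FAS1 did not fall in hypoxia. It read 3.43 and 3.28 in wild type air, 2.85 and 4.71 in wild type hypoxia and 3.39 and 2.50 after the wild type shift, and these 3 groups overlapped. Its ixr1 null readings were 1.80 and 2.44 in air, 6.53 and 6.70 in hypoxia and 3.22 and 2.59 after the shift. FAS1 was 3.16-fold higher in ixr1 null hypoxia than in ixr1 null air (log2 difference 1.66 ± 0.46, adjusted p = 0.0442), a call that was lost in 8 of 12 alternatives, among them each array left out in turn. In wild type hypoxia the difference was 0.13 ± 0.46 (adjusted p = 0.924), and the interaction of genotype and hypoxia for FAS1 was 1.53 ± 0.65 with an adjusted p of 0.298. The difference between the FAS1 and FAS2 responses was not tested, since intensities of 2 probes are not on 1 scale. The 5 probes nearest to FAS1 in pattern were ARO3, RNR2, ARO1, DPP1 and CST6, with root mean square differences of 0.304 to 0.348 against a median of 0.962.

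ACC1 was higher in overnight hypoxia. It read 3.53 and 3.64 in wild type air, against 12.5 and 10.5 in wild type hypoxia, a 3.19-fold rise (log2 difference 1.67 ± 0.45, adjusted p = 0.0368). The ixr1 null arrays gave 4.43 and 3.93 in air and 11.6 and 11.0 in hypoxia, a difference of 1.44 ± 0.45 with an adjusted p of 0.0717. The groups did not overlap in either genotype, and the exact permutation test over both genotypes gave a log2 difference of 1.55 with p = 0.0286. The wild type call was lost when any of its 4 arrays was left out (adjusted p from 0.139 to 0.227) and when arrays were centred on medians (adjusted p = 0.0984). After the shift ACC1 read 7.02 and 3.90 (wild type) and 8.10 and 7.46 (ixr1 null), above the air arrays of the same genotype but without passing the test (adjusted p = 0.573 and 0.344).

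Of the elongase genes, ELO1 passed the test in 1 comparison and ELO2 and ELO3 in none. ELO1, whose product lengthens medium chains, read 1.16 and 1.01 on the wild type air arrays and 1.12 and 1.20 on those of the ixr1 null. It read 0.599 and 0.961 in wild type hypoxia and 0.312 and 0.391 in ixr1 null hypoxia, so the ixr1 null hypoxia arrays were the lowest. After the shift ELO1 read 0.742 and 1.19 (wild type) and 1.71 and 0.971 (ixr1 null). Against ixr1 null air, ELO1 in ixr1 null hypoxia differed by -1.73 ± 0.50 (log2, adjusted p = 0.0524). ELO1 was 3.69-fold higher after the ixr1 null shift than in ixr1 null hypoxia (1.88 ± 0.46, adjusted p = 0.0168), and this call was lost in 8 of 14 alternatives (adjusted p up to 0.263).

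ELO2 and ELO3 make the very long chains that enter ceramides. ELO2 read 0.875 and 0.911 in wild type air, 0.531 and 0.763 in ixr1 null air, 0.356 and 0.400 in wild type hypoxia and 0.318 and 0.192 in ixr1 null hypoxia. After the shift it was 0.187 on wild type array A and 1.43 on array B, and 0 on ixr1 null array A and 1.33 on array B. The A arrays were thus low in both genotypes and the B arrays high, the reverse of MGA2. ELO3 read 0.662 and 0.654 in wild type air, 0.615 and 0.875 in ixr1 null air, 0.344 and 0.688 in wild type hypoxia and 0.425 and 0.283 in ixr1 null hypoxia. After the shift ELO3 read 0.697 and 0.992 (wild type) and 0 and 0.908 (ixr1 null). Over both genotypes the exact permutation test for hypoxia against air gave ELO1 a log2 difference of -1.12 with p = 0.0286, ELO2 -1.30 with p = 0.0286 and ELO3 -0.76 with p = 0.114. These exact p-values are unadjusted, unlike those of limma. For ELO1 the exact p became 0.0571 with the deposited values.

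Counted by comparison, 3 of 9 genes passed the test in wild type hypoxia against air, with ACC1 higher and OLE1 and FAS2 lower, while 11.9% of all probes tested passed there. In ixr1 null hypoxia 1 of 8 passed, FAS1, where 12% of probes did. After the shift 0 of 9 passed in the wild type, where 0.749% of probes did and 739 had an unadjusted p under 0.05, and 0 of 7 passed in the ixr1 null, where 1.97% did and 322 had an unadjusted p under 0.05. Shift against hypoxia gave 2 of 9 in the wild type, OLE1 and FAS2, where 9.03% of probes passed, and 2 of 6 in the ixr1 null, OLE1 and ELO1, where 20.2% passed. The median log2 difference of the tested genes was -0.44 in wild type hypoxia and -0.76 in ixr1 null hypoxia, beside 0.01 and -0.20 over all probes tested. Over both genotypes, 5 of the 8 genes with values on all 8 arrays had hypoxia and air arrays that did not overlap, beside 23.3% of 4844 probes. They were MGA2 and ACC1, which were higher, and OLE1, ELO1 and ELO2, which were lower. For the shift against air the same held for 1 of 7, MGA2, beside 12.9% of 2178 probes. With the deposited values the shift and air arrays overlapped for MGA2.

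**Figure D3:**
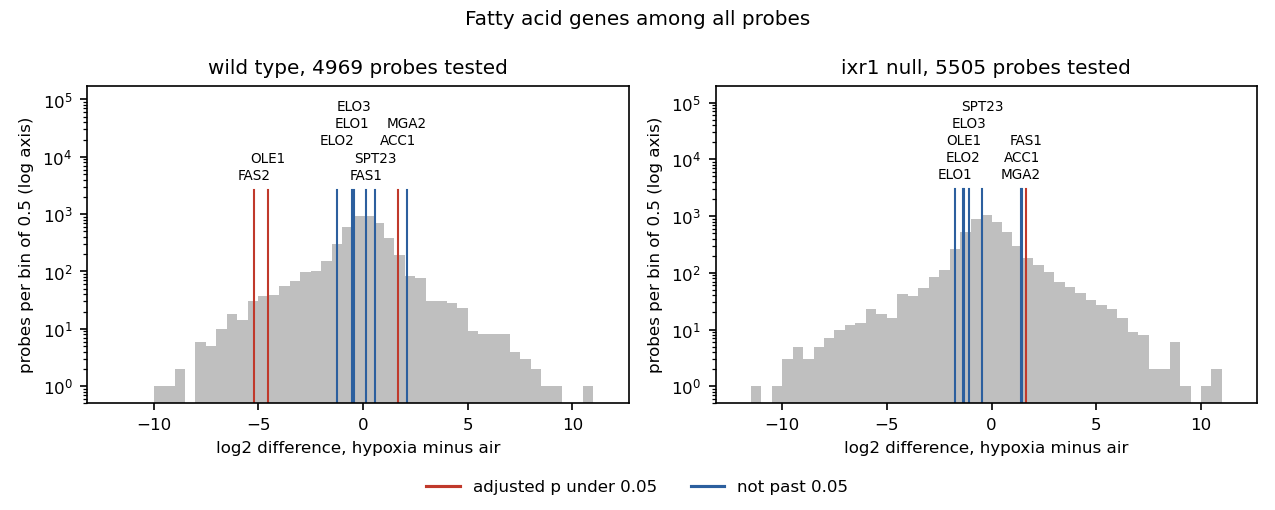
Histograms of the log2 difference between overnight hypoxia and air over all probes tested (probes per bin, log axis), for the wild type with 4969 probes and the ixr1 null with 5505. Vertical lines mark the fatty acid genes, in red where the adjusted p is under 0.05. In the wild type OLE1 and FAS2 lie in the lower tail, and in the ixr1 null OLE1 lies at -1.32.

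No gene of the 9 passed the test between the arrays labelled ixr1 null and wild type. In air 0 of 9 passed, where 0% of probes did with limma and 382 of 5043 had an unadjusted p under 0.05. In hypoxia 0 of 8 passed, where 0.279% of probes did and 771 had an unadjusted p under 0.05. After the shift 0 of 7 passed, where 0% did and 170 of 2231 probes had an unadjusted p under 0.05. OLE1 had the smallest p of the 9 genes in air, where it was 3.71-fold lower in the ixr1 null (log2 difference -1.89 ± 0.59), with an adjusted p of 0.513 and no overlap of the arrays. With the letters as a block within each condition its adjusted p was 0.227. In hypoxia OLE1 was 2.49-fold higher in the ixr1 null (1.32 ± 0.60, adjusted p = 0.349), again without overlap. ELO1 was 2.17-fold lower there (-1.12 ± 0.50, adjusted p = 0.348). After the shift OLE1 differed by 0.37 ± 0.56 (adjusted p = 0.919), and the arrays overlapped.

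The tests of whether a response differed between genotypes gave 0 of 8 genes for hypoxia, where 0.145% of probes passed and 741 had an unadjusted p under 0.05, and 0 of 7 for the shift, where 0% did with limma and 213 of 2178 had an unadjusted p under 0.05. OLE1 had the largest value in both. Its interaction with the shift was 2.26 ± 0.79 on the log2 scale with an adjusted p of 0.351. Under the replicate block its adjusted p was 0.0659 for hypoxia and 0.120 for the shift, still short of the threshold. The interaction for MGA2 was -0.69 ± 1.11 (adjusted p = 0.818) in hypoxia and that for ACC1 was -0.24 ± 0.64 (adjusted p = 0.901), with 95% intervals from -3.16 to 1.78 and from -1.65 to 1.18.

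Around these genes, 59 further lipid genes in 10 lists were read, of which 58 were in the table. In wild type hypoxia against air, 1 of the 50 tested rose and 7 fell, 16% in all beside 11.9% of all probes. In ixr1 null hypoxia 3 of 58 rose and 5 fell, 13.8% beside 12%. The shift against air gave 0 of 48 in the wild type with limma, beside 0.749% of all probes, and 1 of 24 in the ixr1 null (4.17% beside 1.97%). Shift against hypoxia gave 4 of 51 (7.84% beside 9.03% of all probes) and 9 of 24 (37.5% beside 20.2%). Counts for single lists in hypoxia, given below, are to be read beside the same 11.9% (wild type) and 12% (ixr1 null). The smallest p in the wild type shift was that of INO1, which codes for the inositol phosphate synthase and differed from air by -2.99 ± 0.66 on the log2 scale (adjusted p = 0.0744).

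Of the genes for processing of Mga2 and Spt23 and control of OLE1, 2 of 4 tested fell in wild type hypoxia and the other 2 did not pass the test. CDC48, the ATPase that frees the cut activators from the membrane, read 4.49 and 3.81 in wild type air, against 0.199 and 0.246 in wild type hypoxia, an 18.7-fold fall (adjusted p = 0.000483). RSP5, the ubiquitin ligase of this step, read 0.601 and 0.487 in air and 0.0621 and 0.140 in hypoxia, a 5.80-fold fall (adjusted p = 0.00921) that did not pass without air array A or hypoxia array A. In ixr1 null hypoxia 0 of 5 passed. CDC48 there read 1.37 and 2.86 in air and 0.760 and 0.495 in hypoxia, a log2 difference of -1.69 (adjusted p = 0.0700). CDC48 was higher after the shift than in hypoxia in both genotypes, by 2.97 (adjusted p = 0.00574) in the wild type and 2.74 (adjusted p = 0.00294) in the ixr1 null. The wild type call was lost with only the groups compared in the fit (adjusted p = 0.0555) and without wild type hypoxia array A (adjusted p = 0.0649).

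Genes that put acyl chains into glycerolipids moved in both directions. SLC1, whose product acylates lysophosphatidic acid, read 0.184 and 0.210 in wild type air, against 3.73 and 6.70 in wild type hypoxia, a 25.4-fold rise (adjusted p = 0.000303). In the ixr1 null SLC1 read 0.113 and 0.140 in air and 11.8 and 13.6 in hypoxia, a rise of 6.65 on the log2 scale (adjusted p = 9.16e-05). SCT1, a glycerol-3-phosphate acyltransferase gene for the step before it, fell 20.8-fold in the wild type (adjusted p = 0.000319) and 3.92-fold in the ixr1 null (adjusted p = 0.0297). GPT2, which codes for the other enzyme of that step, fell in the ixr1 null from 0.840 and 0.603 to 0.0144 and 0.00356 (adjusted p = 0.000977). The hypoxia readings of GPT2 are dim, and its call was lost when dim values were set to the 10th percentile. Both wild type hypoxia readings of SCT1 (0.0266 and 0.0227) are also dim, and with them set to the 10th percentile the wild type difference was -3.12 on the log2 scale (adjusted p = 0.00218). The SCT1 call in the ixr1 null was lost in 8 of 12 alternatives, and that in the wild type in none. In all, 2 of 7 genes of this list passed in the wild type and 3 of 8 in the ixr1 null.

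OPI1, the repressor of the Ino2 and Ino4 activators that serve phospholipid and fatty acid synthesis genes, fell in both genotypes. It read 4.04 and 4.36 in wild type air, against 0.0868 and 0.137 in wild type hypoxia, a log2 difference of -5.27 ± 0.46 (adjusted p = 0.000108). Its ixr1 null readings were 3.75 and 4.57 in air and 0.164 and 0.124 in hypoxia, a difference of -4.86 ± 0.46 (adjusted p = 0.000184). It was the only gene of its list to pass in hypoxia, of 6 tested in the wild type and 7 in the ixr1 null. OPI1 was higher after the shift than in hypoxia, by 3.81 (adjusted p = 0.000936) in the wild type and 3.14 (adjusted p = 0.000483) in the ixr1 null, where centring arrays on medians gave 1.88 (adjusted p = 0.0817).

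In ceramide synthesis, which uses the chains made by ELO2 and ELO3, 2 of 7 genes passed in wild type hypoxia, and both fell. They were LCB2, for a subunit of serine palmitoyltransferase (-2.95, adjusted p = 0.0186), and SUR2, for the sphingoid base hydroxylase (-2.83, adjusted p = 0.0395). In ixr1 null hypoxia SUR2 fell by 4.91 (adjusted p = 0.00308) and LIP1, for a ceramide synthase subunit, fell by 4.06 (adjusted p = 0.00327). SCS7, for the hydroxylase of the very long acyl chain, rose by 1.87 (adjusted p = 0.0328), so 3 of 7 passed there. Of 12 alternatives, the call was lost in 6 for LCB2 and 9 for SUR2 in the wild type, and in 8 for SCS7 in the ixr1 null. Of the carriers and activators of acyl chains, 1 of 5 passed in wild type hypoxia and 0 of 5 in the ixr1 null. The one was ACB1, for the acyl-CoA binding protein, which fell 9.68-fold (adjusted p = 0.00527).

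The other lists gave few calls in hypoxia. In mitochondrial fatty acid synthesis, a separate pathway that serves lipoic acid, 0 of 4 passed in the wild type and 1 of 6 in the ixr1 null, OAR1, for the oxoacyl reductase, which rose by 2.75 (adjusted p = 0.0167) but did not pass when an air array or hypoxia array B was left out. Among the electron donors for desaturation 0 of 3 passed in either genotype. CYB5, for cytochrome b5, differed by 1.95 ± 1.10 in the wild type (adjusted p = 0.359) and NCP1, for the NADPH-cytochrome P450 reductase, by 1.38 ± 0.47 in the ixr1 null (adjusted p = 0.0949). The elongation cycle enzymes beside the elongases gave 0 of 3 in each genotype, the acetyl-CoA and carboxylase partners 0 of 5 in each, and peroxisomal beta oxidation 0 of 6 and 0 of 9. The smallest p in the last list was that of PXA2 in the wild type, for a subunit of the peroxisomal acyl-CoA transporter (3.39 ± 0.97, adjusted p = 0.0533). After the ixr1 null shift ACS1, for an acetyl-CoA synthetase, was 18.3-fold higher than in air (adjusted p = 0.0420), and it read 3.31 on array A and 0.606 on array B. Without that A array, and in 10 of 14 alternatives in all, the ACS1 call was lost.

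Between the shift and hypoxia, 3 further lipid genes of the wild type were higher after the shift and 1 was lower. Beside CDC48 and OPI1 these were SCT1, higher by 4.03 (adjusted p = 0.000991) or by 2.77 with dim values set to the 10th percentile, and SLC1, lower by a log2 difference of -4.74 (adjusted p = 0.000569). SLC1 read 0.182 and 0.193 after the wild type shift, close to its wild type air readings and below every hypoxia array. For the ixr1 null the comparison covered 24 of 58 genes, since the others read 0 on at least one shift array, and 8 were higher and 1 lower. The median log2 difference of all probes tested there was 0.61, and that of the 24 genes was 0.36.

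Beside CDC48 and OPI1, the ixr1 null genes that were higher after the shift than in hypoxia included LIP1, by 3.83 (adjusted p = 0.00178), SUR2, by 3.56 (adjusted p = 0.00858), and SCT1, by 2.84 (adjusted p = 0.00168). The others were OAF1, for an activator of peroxisomal genes, by 2.13 (adjusted p = 0.0356), ACB1, by 2.00 (adjusted p = 0.0381), and PHS1, for the dehydratase of the elongation cycle, by 1.95 (adjusted p = 0.0108). SCS7 read 3.42 and 2.82 in ixr1 null hypoxia and 0.410 and 0.372 after the shift, a log2 difference of -2.99 (adjusted p = 0.000956). Of 14 alternatives, the call was lost in 12 for ACB1, 10 for OAF1, 6 for PHS1, 4 for SUR2, 3 for SCT1 and 1 each for LIP1 and OPI1, and in none for SCS7 and CDC48. Centring arrays on medians, which ended the calls of the other 7, brought the median of all probes tested from 0.61 to -0.53.

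**Figure D4:**
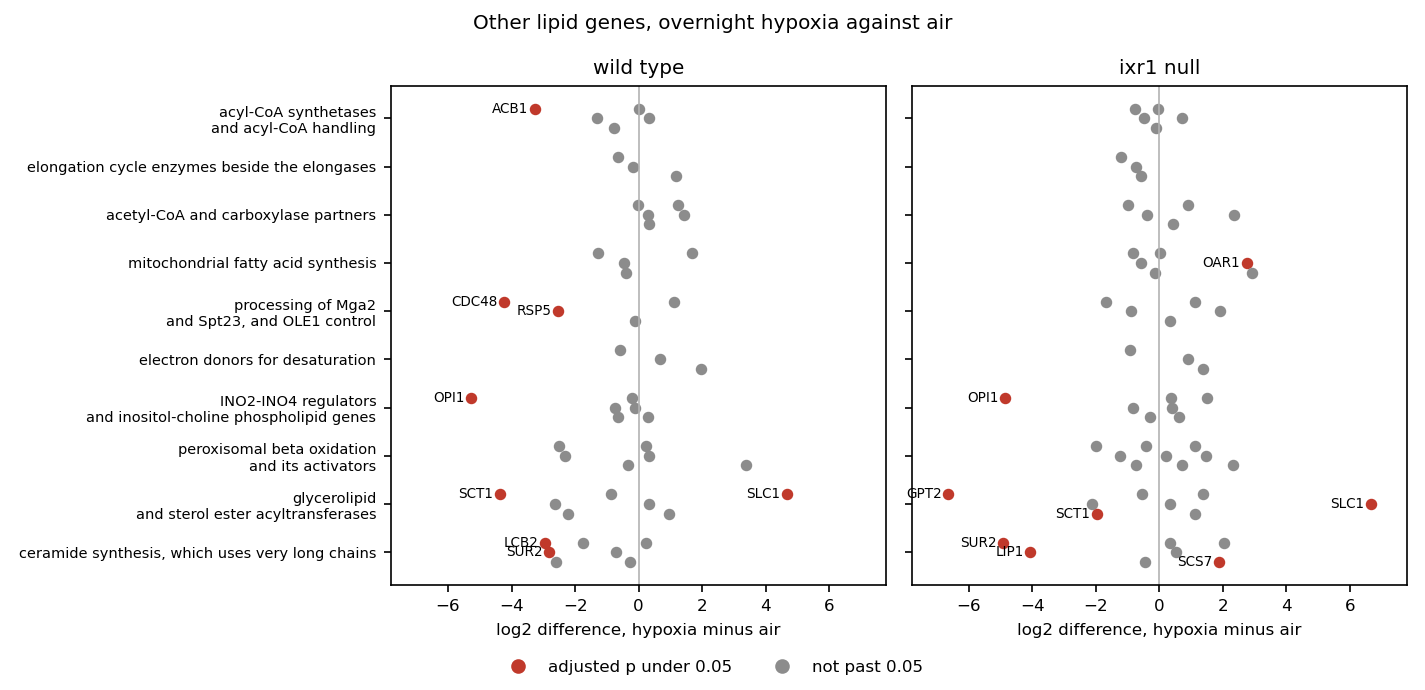
Log2 difference between overnight hypoxia and air for the further lipid genes, by list, in the wild type and the ixr1 null. Each point is 1 gene with values on all 4 arrays of the comparison, spread vertically only for legibility, and red, named points have an adjusted p under 0.05. SLC1 stands at 4.66 and 6.65 and OPI1 at -5.27 and -4.86.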

How the data were processed

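The authors deposited intensity values on a linear scale, 1 per open reading frame and array. Per the labels' protocols, total RNA extracted with TRIZOL was primed with oligo-dT and copied into 32P-labelled cDNA. Of scanner, background subtraction and scaling, the details were not given in the sources used here. Of 5974 probe names, 5571 matched a locus tag of the RefSeq table of assembly R64, used only for symbols, and 403 did not. Sequences were not used here.

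Array medians of positive values differed by up to 1.49 (log2), so the 12 arrays were quantile normalized with zeros ranked, zeros were then set to missing and the rest log2 transformed. A probe was tested where it had values on all arrays of the groups involved. A group-means model over the 12 arrays was tested with limma 3.58.1 (R 4.3.3), with Benjamini-Hochberg adjustment over the probes tested and a threshold of 0.05. The code was checked on simulated data. A moderated test pools variances over probes. The number of arrays limits the precision. Exact permutation tests, two-sided, pooled the genotypes, and 2 against 2 arrays cannot go below p = 0.333. Their p-values were not adjusted over the genes. Likeness to OLE1 or FAS1 was the root mean square difference of centred log2 values.

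Deviations from the group means of arrays with the same condition and letter correlated between genotypes at 0.257 (air), 0.189 (hypoxia) and 0.648 (shift). The labels do not state that arrays of the same letter are paired, and the correlations in air and hypoxia were low. The main tests, and the shares of all probes given with them, ignore any such pairing, also in the genotype comparisons. Only the replicate block used the letters, and shares of all probes under it are not given. The labels name no batch. The alternatives were other scalings, treatment of zeros, a filter on dim probes, the arrays in the fit, the replicate block and left-out arrays. Those chosen after the data were seen were quantile normalization over positive values and a variance prior from all probes.

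The members and lists were chosen with earlier results of these data known. All members are named. Of each list, per comparison, the genes past the threshold are named if 4 or fewer, otherwise the 2 lowest p-values per direction, and where none passed at most the 1 of smallest p. DAN1 and IXR1 are named as checks of condition and strain.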

Additional observations from a re-analysis of the deposited data

How the results depend on the processing

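Over 1194 tests of the 9 genes under alternatives, 1156 kept their side of the threshold, 11 passed only under the alternative, 24 no longer passed and 3 reversed. In 96 of the 1156 the sign changed for a difference that did not pass on either side. OLE1 in wild type hypoxia against air passed under each of 12 alternatives (-5.16 to -3.91, adjusted p from 0.000544 to 0.0115), FAS2 likewise (-5.59 to -4.50, highest adjusted p 0.0207), and OLE1 in wild type shift against hypoxia under each of 14 (3.52 to 4.77, highest adjusted p 0.0366). The reversals were all of SPT23 in the ixr1 null shift: -2.30 against air and -1.96 against hypoxia with arrays centred on their medians, and -1.57 against hypoxia with quantile normalization over positive values. These scalings moved the median of all probes tested in ixr1 null shift against air by -1.08 and -1.12 (log2), and the deposited scale moved it by -0.59. The counts of genes that passed changed as follows. Shares of all probes that passed under each alternative are not given, so these changes are not read as particular to these genes. Where 1 array of a group, or both shift arrays of 1 letter, are left out, a single array stands for the group. In ixr1 null hypoxia against air the count of 1 became 0 with deposited values, centred arrays, quantile normalization over positive values or the groups compared only, 4 with dim values floored and 2 with dim probes left out, and ran from 0 to 1 with 1 array left out. ACC1 and ELO1 were among the 4 and ELO1 among the 2. In ixr1 null shift against air 0 became 1 with centred arrays and 1 without both shift B arrays. In wild type shift against air 0 became 2 without both shift B arrays, MGA2 and ELO2, and ran from 0 to 1 with 1 array left out, the 1 being ELO2 without wild type shift array B (-2.25). In wild type shift against hypoxia 2 became 4 without both shift A arrays and ran from 1 to 2 with 1 array left out. In ixr1 null shift against hypoxia 2 became 1 with deposited values, centred arrays or the groups compared only, and ran from 1 to 2 with 1 array left out. With centred arrays the 1 was SPT23, and with quantile normalization over positive values the 2 were SPT23 and FAS1, while OLE1 and ELO1 no longer passed. Over both genotypes, genes with an unadjusted exact p under 0.05 were counted. The shift count of 1 became 0 with deposited values, centred arrays and quantile normalization over positive values. The hypoxia count of 5 became 4 under the same 3, without ELO1, and 6 with dim values floored, with FAS2. The cause of these changes was not tested. The permutation tests were not repeated without single arrays, since 4 against 3 cannot go below 0.0571. The replicate block changed 0 of 87 calls of the fatty acid genes, and with it OLE1 in wild type hypoxia against air had an adjusted p of 0.00107. Of the 30 calls of further lipid genes under alternatives, 301 values kept the call, 87 lost it and 0 reversed. With 2 arrays a group, and with dim or zero readings of FAS2, ELO2 and ELO3, differences of these genes may go undetected.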
